A study of Homo sapiens with 18 samples.

Results

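The nuclear lamina and 2 families of proteins linked to it were followed across 6 groups of IMR90 ER:RAS cells: the lamin genes LMNA, LMNB1 and LMNB2, the inner nuclear membrane genes LBR, TMPO and EMD, the SUN-domain genes SUN1 and SUN2, and the chromatin proteins HMGB1 and HMGB2. The 10 genes were picked by symbol from a table of 28266 gene rows, and all 10 were among the 14341 genes with enough reads to test. IMR90 ER:RAS is a human lung fibroblast line that carries a fusion of the oestrogen receptor to the RAS oncoprotein, and control and senescent cells alike carried it. 4-hydroxytamoxifen (4OHT) at 100 nM switched RAS on and brought about oncogene-induced senescence, while control cells were given the solvent DMSO. After 7 days of either, an inhibitor of N-myristoyltransferases (NMTi) or DMSO was added for the last 3 days of a 10-day course. Of the pair of NMTi, IMP1088 was used at 300 nM, and DDD86481, for which the labels also give the name PCLX001, at 1.5 µM. This gave control DMSO, control IMP1088, control DDD86481, senescent DMSO, senescent IMP1088 and senescent DDD86481 groups, each of 3 RNA-seq libraries. All of them came from 1 cell line. The labels do not say whether the 3 libraries of a group were separate cultures, while the study describes the replicates of these groups as independent experiments, and the p-values measure the spread between them.

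Lamins form a filament mesh under the inner nuclear membrane. LMNA encodes the A-type lamins A and C, and LMNB1 and LMNB2 encode the B-type lamins, which stay attached to the membrane through a farnesyl group. LBR and the LEM-domain proteins encoded by TMPO and EMD tie chromatin to that mesh, and SUN1 and SUN2 connect it through nesprins to the cytoskeleton. HMGB1 and HMGB2 are abundant proteins that bend DNA, and HMGB1 also acts as an alarm signal once released from the cell. LMNA and LBR lie on chromosome 1, LMNB1 on 5, LMNB2 on 19, TMPO on 12, EMD on X, SUN1 on 7, SUN2 on 22, HMGB1 on 13 and HMGB2 on 4. Loss of lamin B1 and of nuclear HMGB proteins is widely used as a marker of senescent fibroblasts.

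Promoter sequence is shown for the members that fell together or moved against them, since motifs of cell-cycle genes are a natural thing to look for in such a group. RefSeq promoter entries (build GRCh38.p14) were matched by symbol for 8 of the 10 members in 16 start sites, and HMGB2 and SUN1 had none. The 250 bases before each start were searched on both strands for the CCAAT box, the CHR element TTTGAA and the E2F sites TTTGGCGC, TTTCCCGC and TTTCGCGC. Among 35116 windows of the same length, 32.01% held a CCAAT box, 13.32% the CHR letters and 2.32% an E2F site. Each sequence below runs 5′ to 3′ along the gene's strand, with motif matches on either strand in capitals. LMNB1 is shown at its outermost start, on the plus strand of chromosome 5 at chr5:126776373-126776622, TMPO on the plus strand at chr12:98515323-98515572, HMGB1 on the minus strand at chr13:30465937-30466186 and SUN2, the member that rose in senescent cells, on the minus strand at chr22:38755999-38756248.
LMNB1: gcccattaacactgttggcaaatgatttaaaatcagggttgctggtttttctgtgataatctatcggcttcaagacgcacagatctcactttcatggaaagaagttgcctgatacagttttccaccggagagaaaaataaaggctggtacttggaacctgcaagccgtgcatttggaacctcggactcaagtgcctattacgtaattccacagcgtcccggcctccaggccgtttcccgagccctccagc
TMPO: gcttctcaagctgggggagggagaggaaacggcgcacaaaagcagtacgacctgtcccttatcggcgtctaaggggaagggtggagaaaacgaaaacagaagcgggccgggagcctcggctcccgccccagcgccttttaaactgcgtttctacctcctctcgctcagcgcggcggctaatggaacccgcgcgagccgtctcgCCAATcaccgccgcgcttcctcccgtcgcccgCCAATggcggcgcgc
HMGB1: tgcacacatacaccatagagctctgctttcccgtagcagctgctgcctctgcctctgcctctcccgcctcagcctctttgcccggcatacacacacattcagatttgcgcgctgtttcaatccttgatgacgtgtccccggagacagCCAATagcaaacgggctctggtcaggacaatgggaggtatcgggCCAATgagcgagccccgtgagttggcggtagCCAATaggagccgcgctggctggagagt
SUN2: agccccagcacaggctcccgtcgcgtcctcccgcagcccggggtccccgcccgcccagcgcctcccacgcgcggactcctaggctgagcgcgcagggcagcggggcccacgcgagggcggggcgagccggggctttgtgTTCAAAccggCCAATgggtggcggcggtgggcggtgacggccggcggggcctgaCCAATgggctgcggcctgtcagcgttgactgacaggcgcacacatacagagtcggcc

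The LMNB1 window shown held none of the letters searched, and the window of its other start held 1 CCAAT box on the reverse strand, 138 bases before the start. TMPO held 2 CCAAT boxes, 47 and 15 bases before its start. The HMGB1 window shown held 3, at 103, 59 and 28 bases, while another HMGB1 start had 1 reverse CCAAT box at 115 bases and 1 CHR match at 246 bases. The outermost HMGB1 start, at chr13:30617598-30617847 and not shown, held none of the letters searched. The SUN2 window shown held 2 CCAAT boxes, at 101 and 57 bases, and 1 CHR match on the reverse strand at 111 bases, and its other starts held none. The outermost LMNA window held 1 CCAAT box and 1 E2F site, at 146 and 23 bases, and its other starts held none. EMD held 2 CCAAT boxes, LMNB2 held 1 CHR match 246 bases before its start, and the LBR window held none of these letters. CCAAT boxes therefore stood both in members that fell in senescent cells and in SUN2, which rose.

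Library totals ran from 16143716 to 23189950 reads. Levels are given as CPM, each count as a share of its library's total in the usual unit, scaled by edgeR's trimmed mean of M-values, and a count of 3 reads, used as the floor of detection, equalled 0.121 to 0.187 CPM. Control DMSO replicate 3 stood apart from its group, differing from the others by a chi-square per gene of 49.1 and 97.2, against 5.02 to 26.3 between the other replicate pairs. A gene was called where edgeR's quasi-likelihood test gave a Benjamini-Hochberg adjusted p under 0.05 over the 14341 genes. Fold changes are on the log2 scale with a standard error (SE) derived from that test. All 8 fibroblast markers were detected in every group, with summed levels of 24195 to 30349 CPM in control DMSO and 16364 to 16744 CPM in senescent DMSO libraries. Of these markers 7 were called lower and 1 higher in senescent DMSO cells. VIM rose from a mean of 5035 to 11681 CPM and made up most of the senescent sum. DCN fell from 3042 to 7.73 CPM and LUM from 314 to 8.39 CPM. The 4 epithelial markers summed to at most 1.49 CPM, with 2 of them at 0, and the 4 leukocyte markers to at most 1.62 CPM, with 1 at 0. The 4 endothelial markers summed to 1.17 to 1.73 CPM in control DMSO and 10.3 to 10.7 CPM in senescent DMSO libraries. In bulk RNA, fewer cells of a kind and less RNA per cell cannot be told apart.

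Gene counts are not comparable between genes until divided by length, so levels per kilobase of the MANE transcript were used to rank the members. In control DMSO cells LMNA was the most abundant, at 209 CPM per kb, followed by EMD at 48.9 and HMGB2 at 36.2. LMNB2 (31.7), SUN1 (27.5), HMGB1 (25.3), SUN2 (20.3), TMPO (17.9) and LBR (13.1) came next on the same scale, and LMNB1 was lowest at 9.40 CPM per kb. The A-type lamin gene was thus far above both B-type genes per unit length. A and C forms of LMNA, and the splice forms of TMPO, were counted together.

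Comparing senescent with control DMSO cells asks how these genes differed between the states without NMTi. All senescent libraries, and no control library, came from cells given the drug that switched RAS on. No group received that drug without the RAS fusion, so the drug's own part in these values was not tested. LMNB1, HMGB2, LBR, HMGB1, TMPO, SUN1 and LMNA fell, SUN2 rose, and LMNB2 and EMD did not pass the test. The 8 called members of 10 stand beside 68.5% of all genes called in this comparison, 32.5% higher and 36.0% lower, so that a call by itself sets no member apart. The median log2 fold change of the members was −0.64, against −0.05 over all genes tested. Sizes differed widely, from a 12.9-fold decrease of LMNB1 to a 1.21-fold decrease of LMNA.

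**Figure D1:**
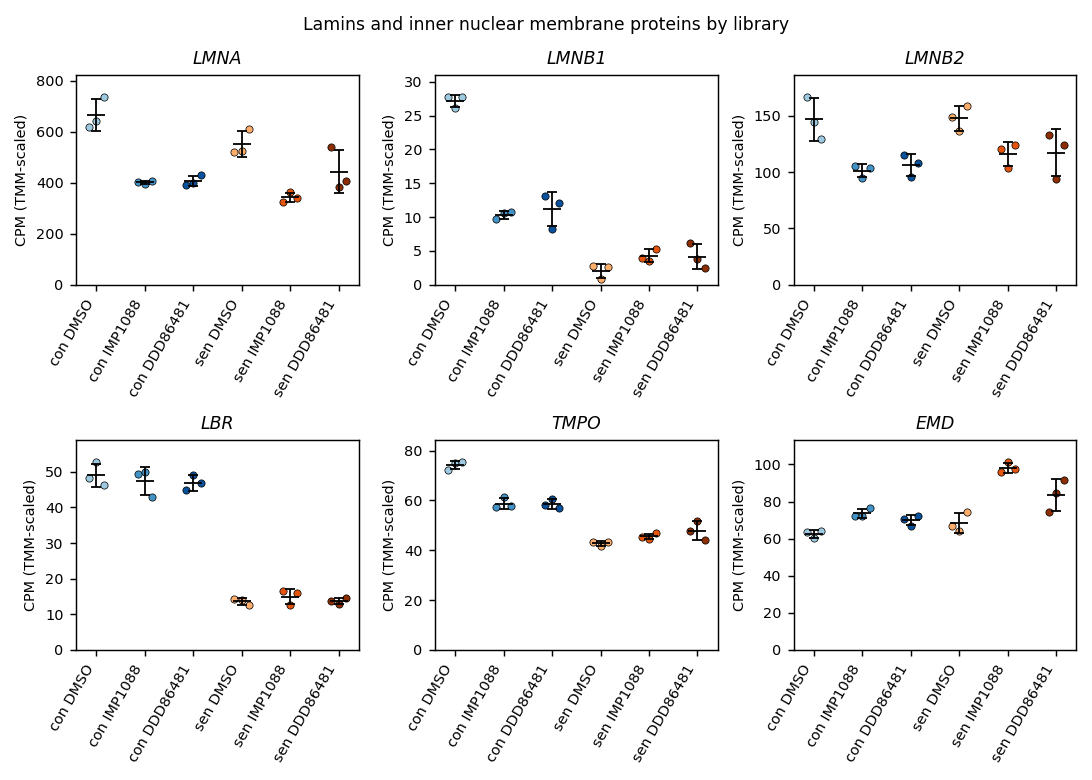
Level of the 3 lamin genes and of LBR, TMPO and EMD in CPM (vertical axes, from 0) in each of 18 libraries. Points are libraries, horizontal marks are means and bars are SD of 3 libraries, with con for control and sen for senescent. LMNB1 sits at 26.1 to 27.7 CPM in control DMSO and at 0.872 to 2.78 CPM in senescent DMSO libraries, while LMNB2 overlaps between these groups.

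LMNB1 was read at 27.7, 26.1 and 27.7 CPM in the control DMSO libraries and at 2.78, 0.872 and 2.58 CPM in the senescent DMSO libraries. The groups lay far apart, and the 3 senescent values came from only 45, 14 and 47 reads, with replicate 2 the lowest. Its log2 fold change was −3.69 ± 0.29 (SE, n = 3 per group, edgeR adjusted p = 5.57e-10), and −3.34 without senescent DMSO replicate 2. LMNB2, the other B-type lamin gene, was at 167, 145 and 129 CPM in control and 149, 136 and 158 CPM in senescent libraries. These ranges overlapped, and the log2 fold change of LMNB2 was 0.0083 with a 95% interval from −0.26 to 0.27 (edgeR adjusted p = 0.955). The fall of B-type lamin mRNA was therefore detected in LMNB1 and not in LMNB2. LMNA was at 618, 642 and 737 CPM in control and 522, 524 and 609.9 CPM in senescent libraries, a log2 fold change of −0.27 ± 0.11 (edgeR adjusted p = 0.0368). The LMNA call was lost in 3 of 6 fits that left out 1 library, those without control DMSO replicate 3 (−0.19, adjusted p = 0.126) and without senescent DMSO replicate 1 (−0.23, adjusted p = 0.123) or 2 (−0.23, adjusted p = 0.119).

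Among the membrane proteins LBR, the lamin B receptor, was at 48.2, 52.7 and 46.3 CPM in control and 14.4, 14.1 and 12.6 CPM in senescent libraries. The 2 groups were well separated, with a log2 fold change of −1.84 ± 0.11 (edgeR adjusted p = 7.84e-12). TMPO, which encodes the LAP2 proteins, went from 72.2, 74.8 and 75.3 CPM to 43.5, 41.6 and 43.3 CPM. The spread within each TMPO group was small, and the change was −0.79 ± 0.080 (edgeR adjusted p = 2.45e-08). EMD, encoding emerin, lay at 60.3 to 64.0 CPM in control and 64.1 to 74.3 CPM in senescent libraries, a log2 fold change of 0.13 ± 0.087 that did not pass the test (edgeR adjusted p = 0.205). TMPO shares 7.6% of its exonic bases with TMPO-AS1 on the opposite strand. The libraries were strand-specific and the study's methods give a first-strand type for the alignment, but the strand option of the counting is not stated.

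The SUN-domain genes moved apart. SUN2 was at 81.7, 83.1 and 76.2 CPM in control and 123, 122 and 125 CPM in senescent libraries, a rise of 0.62 ± 0.081 (log2, edgeR adjusted p = 1.09e-06). SUN1 was at 126, 114 and 90.5 CPM in control and 82.0, 77.3 and 77.7 CPM in senescent libraries. All senescent SUN1 values lay below the control values, which themselves spread widely, and the log2 fold change was −0.48 ± 0.098 (edgeR adjusted p = 1.94e-04), and −0.37 without control DMSO replicate 1 or −0.61 without control DMSO replicate 3, called in both. Both genes overlap neighbours, SUN1 sharing 15.54% of its exonic bases with GET4 on the same strand and SUN2 13.59% with GTPBP1 on the opposite strand, so reads in those stretches are uncertain.

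**Figure D2:**
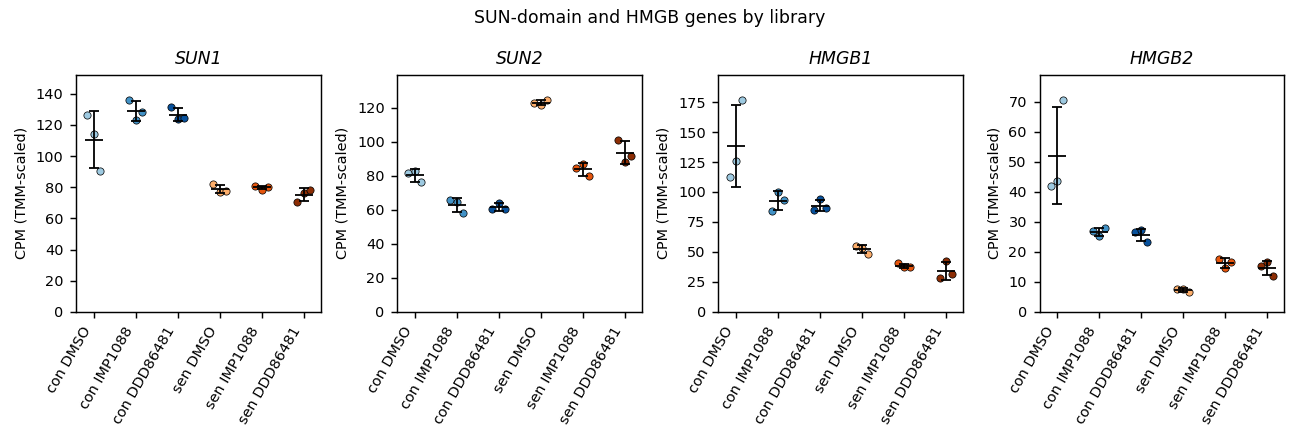
Level of SUN1, SUN2, HMGB1 and HMGB2 in CPM (vertical axes, from 0) in each of 18 libraries. Points are libraries, horizontal marks means and bars SD of 3 libraries, with con for control and sen for senescent. HMGB2 falls from 42.0 to 70.7 CPM in control DMSO to 6.54 to 7.72 CPM in senescent DMSO libraries and stands at 12.0 to 17.8 CPM in the senescent NMTi libraries.

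HMGB2 was at 42.0, 43.7 and 70.7 CPM in control and 7.72, 7.59 and 6.54 CPM in senescent libraries. Control DMSO replicate 3 stood above the other two, and the senescent values were tight. The log2 fold change of HMGB2 was −2.84 ± 0.18 (edgeR adjusted p = 1.66e-11), and −2.56 without that library. HMGB1 showed the same high value in control DMSO replicate 3, at 113, 126 and 177 CPM in control against 55.3, 53.2 and 48.7 CPM in senescent libraries. HMGB1 fell by 1.40 ± 0.15 on the log2 scale (edgeR adjusted p = 4.42e-08), and by 1.19 without that library. HMGB1 has many near-identical processed copies in the genome, so its counts depend on how multi-mapping reads were treated, which is not given in the sources used here.

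The change in LMNB1, HMGB2 and TMPO stood beside a change in genes of the cell cycle. Of 20 proliferation genes, 19 fell and 1 rose in senescent DMSO cells, and their summed level went from 502 to 577 CPM in control DMSO to 125 to 139 CPM in senescent DMSO libraries. MKI67 went from 12.9 to 32.2 CPM to at most 3 reads a library, the floor of detection, CDK1 from 12.7 to 19.6 CPM to at most 6 reads and BIRC5 from 18.3 to 26.7 CPM to at most 9 reads, too few for a precise fold. The part of proliferation in the values of the 10 members was not tested.

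Treating control cells with either NMTi asks what the inhibitors do without senescence. LMNB1, HMGB2, LMNA, HMGB1, LMNB2, SUN2 and TMPO fell with IMP1088, and the same 7 genes fell with DDD86481. EMD rose with IMP1088, LBR and SUN1 passed with neither, and no member rose with DDD86481. With IMP1088, 8 of 10 members were called beside 33.7% of all genes, 16.3% higher and 17.4% lower. With DDD86481, 7 of 10 were called beside 36.6% of all genes, 17.8% higher and 18.7% lower. The median log2 fold change of the members was −0.45 with IMP1088 and −0.42 with DDD86481, with medians over all genes of −0.0011 and 0. Both comparisons share the control DMSO libraries, so their values are set side by side only, and the doses differ. Without control DMSO replicate 3, the members called numbered 7 in senescence, where LMNA was lost, and 8 and 7 with the inhibitors in control cells, as with that library.

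LMNB1 was at 9.68, 10.6 and 10.7 CPM in control IMP1088 and 13.0, 8.29 and 12.1 CPM in control DDD86481 libraries. None of these 6 values came near the 26.1 CPM that was the lowest of the control DMSO libraries. The log2 fold changes were −1.39 ± 0.24 (edgeR adjusted p = 1.56e-04) and −1.28 ± 0.24 (edgeR adjusted p = 3.33e-04). HMGB2 was at 26.8, 25.4 and 27.9 CPM with IMP1088 and 26.6, 27.2 and 23.5 CPM with DDD86481, below all control DMSO libraries. It changed by −0.96 ± 0.16 (edgeR adjusted p = 1.12e-04) and −1.02 ± 0.16 (edgeR adjusted p = 6.59e-05), and by −0.68 and −0.74 without control DMSO replicate 3.

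LMNA was at 402, 395 and 409 CPM with IMP1088 and 391, 399 and 430.2 CPM with DDD86481. These 6 values were all below the lowest control DMSO library, at 618 CPM, with log2 fold changes of −0.73 ± 0.11 (edgeR adjusted p = 4.80e-05) and −0.71 ± 0.11 (edgeR adjusted p = 6.25e-05). The change of LMNA with NMTi in control cells was thus larger than its change with senescence, although the difference between them was not tested. LMNB2 fell by 0.53 ± 0.12 and 0.47 ± 0.12 on the log2 scale, to 94.7 to 106 CPM and 95.3 to 115 CPM. HMGB1 went to 84.5 to 100.3 CPM and 84.7 to 93.8 CPM. Its log2 fold changes were −0.58 ± 0.14 and −0.64 ± 0.14, and −0.36 (adjusted p = 0.0254) and −0.43 without control DMSO replicate 3.

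Smaller shifts were seen in the membrane and SUN genes. TMPO was at 57.3, 61.2 and 57.6 CPM with IMP1088 and between 56.8 and 60.6 CPM with DDD86481, between the control DMSO and senescent DMSO levels. Both changes of TMPO were −0.34, with SE of 0.078 and 0.079 (edgeR adjusted p = 0.00260 and 0.00218). SUN2 fell by 0.36 ± 0.081 and 0.38 ± 0.081 on the log2 scale, the opposite direction to its change in senescence. EMD reached 72.2 to 76.3 CPM with IMP1088, a log2 fold change of 0.23 ± 0.086 (edgeR adjusted p = 0.0429), and 66.9 to 72.2 CPM with DDD86481, where 0.16 ± 0.086 did not pass (edgeR adjusted p = 0.160). The EMD call was kept in 1 of 6 fits that left out a library, the one without control DMSO replicate 3, and the others had adjusted p from 0.0502 to 0.102, the highest without control DMSO replicate 2. LBR had log2 fold changes of −0.05 and −0.07, with 95% intervals from −0.27 to 0.18 and from −0.29 to 0.16. SUN1 had 0.23 and 0.20 (edgeR adjusted p = 0.0788 and 0.115), and passed in both comparisons without control DMSO replicate 1, at 0.33 and 0.31 (adjusted p = 0.00873 and 0.0136), while without replicate 3 of that group SUN1 had 0.10 and 0.07.

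**Figure D3:**
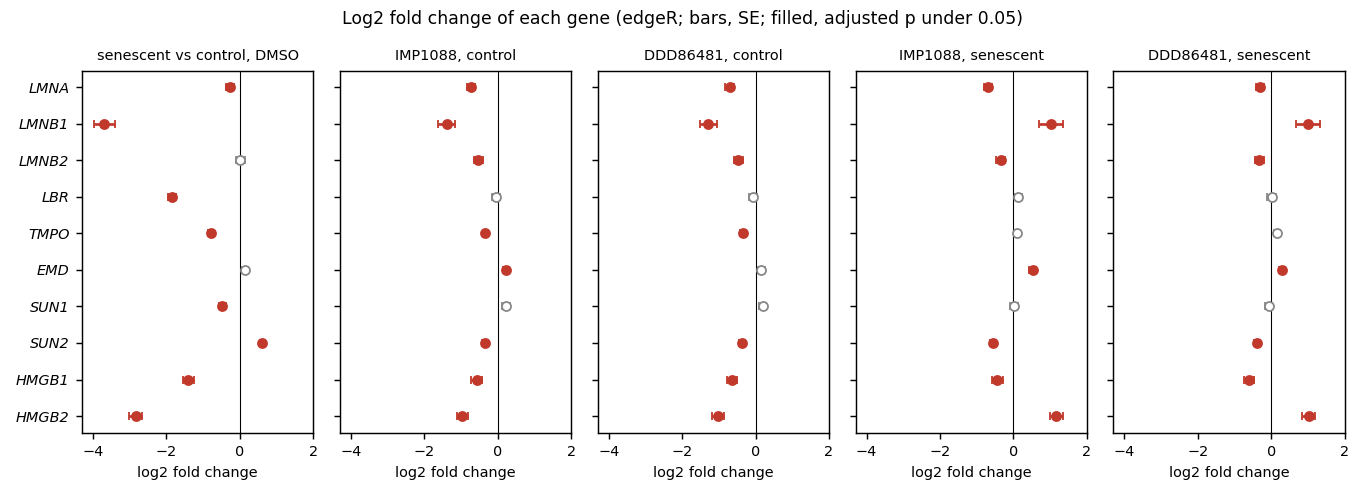
Log2 fold change (horizontal axes) of each of the 10 genes in the 5 comparisons of 2 groups, with bars of 1 SE. Filled points passed an edgeR adjusted p under 0.05 and open points did not. LMNB1 lies at −3.69 in senescence, at −1.39 and −1.28 with the inhibitors in control cells and at 1.03 and 0.99 with them in senescent cells.

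In control cells the proliferation genes fell with both inhibitors as well, 19 of 20 with each and none rising. Their summed level was 198 to 230 CPM with IMP1088 and 187 to 219 CPM with DDD86481, against 502 to 577 CPM in control DMSO. BIRC5 fell by 3.42 ± 0.25 with IMP1088 and by 3.38 ± 0.25 with DDD86481 on the log2 scale. Whether the changes of LMNB1, HMGB2 and TMPO depend on that fall was not tested.

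Adding NMTi to senescent cells asks whether the senescent pattern differs in their presence. The study reports that both inhibitors selectively kill cells in this form of senescence, over a longer treatment than here. In bulk RNA a change per cell and a change in which cells remain cannot be told apart. The part of cell loss in these values was not tested. LMNB1, HMGB2 and EMD rose with both, LMNA, LMNB2, SUN2 and HMGB1 fell with both, and LBR, TMPO and SUN1 passed with neither. With IMP1088 the 7 called members of 10 stand beside 44.4% of all genes called, 20.6% higher and 23.9% lower. With DDD86481 the 7 stand beside 43.2% of all genes, 20.1% higher and 23.1% lower. The median log2 fold change of the members was 0.05 and −0.03, against −0.04 over all genes in both comparisons, which again share their control libraries.

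HMGB2 was at 17.8, 14.6 and 16.6 CPM in senescent IMP1088 and 15.4, 16.7 and 12.0 CPM in senescent DDD86481 libraries. All 6 values lay above the senescent DMSO libraries and below every control library, DMSO or NMTi. The log2 fold changes were 1.17 ± 0.18 (edgeR adjusted p = 2.81e-05) and 1.02 ± 0.18 (edgeR adjusted p = 1.41e-04). LMNB1 was at 4.00, 3.52 and 5.33 CPM with IMP1088, from 76, 63 and 95 reads, and at 6.11, 3.81 and 2.45 CPM with DDD86481, from 112, 73 and 40 reads. The IMP1088 libraries stood above the senescent DMSO libraries and the DDD86481 libraries overlapped them. LMNB1 rose by 1.03 ± 0.32 (edgeR adjusted p = 0.0135) and 0.99 ± 0.32 (edgeR adjusted p = 0.0185). Both calls turned on single libraries: without senescent DMSO replicate 2 the values were 0.68 (adjusted p = 0.0826) and 0.63 (adjusted p = 0.107). Without senescent IMP1088 replicate 3 the first was 0.85 (adjusted p = 0.0695), and without senescent DDD86481 replicate 1 the second was 0.60 (adjusted p = 0.171).

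HMGB1 did not follow HMGB2. It was at 40.6, 37.7 and 37.5 CPM with IMP1088 and 28.4, 42.8 and 31.8 CPM with DDD86481, below the senescent DMSO libraries in each case. The log2 fold changes were −0.44 ± 0.15 (edgeR adjusted p = 0.0201) and −0.61 ± 0.15 (edgeR adjusted p = 0.00241). The IMP1088 call for HMGB1 was kept in 2 of 6 fits without 1 library, lost without senescent DMSO replicate 1 or 2 or without senescent IMP1088 replicate 2 or 3, with the highest adjusted p at 0.0688.

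LMNA was at 324, 363 and 340.3 CPM with IMP1088, below all senescent DMSO libraries, and at 539.7, 384 and 407 CPM with DDD86481, where replicate 1 fell inside the senescent DMSO range. It changed by −0.69 ± 0.11 (edgeR adjusted p = 4.50e-05) and −0.31 ± 0.11 (edgeR adjusted p = 0.0272). Without senescent DDD86481 replicate 1 the second value was −0.48, and the call was lost without senescent DMSO replicate 3 (−0.24) or without senescent DDD86481 replicate 2 (−0.22) or 3 (−0.26). LMNB2 went to 103 to 124 CPM and 93.7 to 133 CPM, with log2 fold changes of −0.35 ± 0.12 (edgeR adjusted p = 0.0261) and −0.34 ± 0.12 (edgeR adjusted p = 0.0324). Each LMNB2 call was kept in 3 of 6 fits without 1 library. The values without replicate 2 of the treated group were −0.27 (adjusted p = 0.127) and −0.20 (adjusted p = 0.204), and both calls were also lost without senescent DMSO replicate 1 or 3. The LMNB genes thus differed in direction in NMTi-treated senescent cells, with LMNB1 higher and LMNB2 lower than in senescent DMSO cells in the full fit.

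EMD was at 95.8, 101 and 97.5 CPM with IMP1088, the highest of its 6 groups, and at 74.3, 84.7 and 91.4 CPM with DDD86481. The log2 fold changes of EMD were 0.52 ± 0.087 (edgeR adjusted p = 5.78e-05) and 0.29 ± 0.087 (edgeR adjusted p = 0.0107). The DDD86481 call was lost without senescent DMSO replicate 2 (0.24, adjusted p = 0.0568) or senescent DDD86481 replicate 3 (0.22, adjusted p = 0.0665). SUN2 was at 84.9, 87.1 and 79.8 CPM with IMP1088 and 101, 87.9 and 91.7 CPM with DDD86481, and changed by −0.55 ± 0.081 (edgeR adjusted p = 1.45e-05) and −0.40 ± 0.081 (edgeR adjusted p = 5.07e-04). All 6 lay below the senescent DMSO libraries, and those with IMP1088 overlapped the control DMSO range. LBR had log2 fold changes of 0.13 and 0.0072, with 95% intervals from −0.12 to 0.38 and from −0.24 to 0.26, and stayed at 12.7 to 16.5 CPM. SUN1 had 0.02 and −0.07, with intervals from −0.20 to 0.23 and from −0.29 to 0.14. TMPO had 0.09 and 0.16 (edgeR adjusted p = 0.384 and 0.111), at 44.2 to 51.6 CPM.

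Summed proliferation genes were at 139 to 142 CPM with IMP1088 and 124 to 139 CPM with DDD86481 in senescent cells, against 125 to 139 CPM in senescent DMSO. With IMP1088, 3 of 20 rose and 3 fell, and with DDD86481, 2 rose and 4 fell, below the 44.4% and 43.2% of all genes called. AURKB rose by 1.43 ± 0.22 and 1.42 ± 0.22 on the log2 scale, and FOXM1 fell by 0.84 ± 0.24 and 1.20 ± 0.25. Both had few reads in senescent libraries, at most 69 for AURKB and 46 for FOXM1. The sum thus overlapped that of senescent DMSO with DDD86481 and lay just above it with IMP1088. PCNA was its largest part, averaging 37.8 CPM in senescent DMSO and 48.9 and 47.3 CPM with IMP1088 and DDD86481. The median log2 fold change of the list was −0.14 and −0.19. The 8 fibroblast markers summed to 11663 to 11953 CPM with IMP1088 and 11344 to 12125 CPM with DDD86481, below senescent DMSO. In each comparison 5 of them were called lower and 2 higher. VIM averaged 11681 CPM in senescent DMSO and 9183 and 8473 CPM with IMP1088 and DDD86481. COL1A2 went the other way, from 708 to 1385 and 1685 CPM. The part of these markers in the members' values was not tested.

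Whether the change with an inhibitor differed between senescent and control cells was tested by the interaction term. The term was obtained by subtracting the inhibitor's log2 fold change in control cells from its value in senescent cells. It compares the cells present at collection, and the part of cell loss in it was not tested. LMNB1, HMGB2 and TMPO passed with both inhibitors, all in the positive direction. For IMP1088 the 3 called members of 10 stand beside 26.2% of all genes called, 12.1% higher and 14.2% lower. For DDD86481 the 3 stand beside 30.3%, 14.4% higher and 15.9% lower, so that the count was close to the share of all genes. The size of the term set LMNB1 and HMGB2 apart from the other 8 members, whose values ran from −0.27 to 0.50.

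LMNB1 had an interaction of 2.42 ± 0.40 with IMP1088 (edgeR adjusted p = 2.18e-04) and 2.27 ± 0.40 with DDD86481 (edgeR adjusted p = 4.06e-04). HMGB2 had 2.13 ± 0.24 (edgeR adjusted p = 4.34e-06) and 2.03 ± 0.24 (edgeR adjusted p = 6.95e-06). Both genes fell in control cells and rose in senescent cells, so that the difference came from opposite directions. TMPO had 0.43 ± 0.11 (edgeR adjusted p = 0.00884) and 0.50 ± 0.11 (edgeR adjusted p = 0.00265), with a fall in control cells and values above 0 that did not pass in senescent cells. These 6 calls were kept in all 12 fits that each left out 1 library. LMNA had 0.04 and 0.40 (edgeR adjusted p = 0.877 and 0.0619), the second passing in 6 of 12 such fits. HMGB1 had 0.14 and 0.04, with 95% intervals from −0.31 to 0.58 and from −0.41 to 0.48, intervals that lie below the lower bounds of 1.60 and 1.50 for HMGB2.

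**Figure D4:**
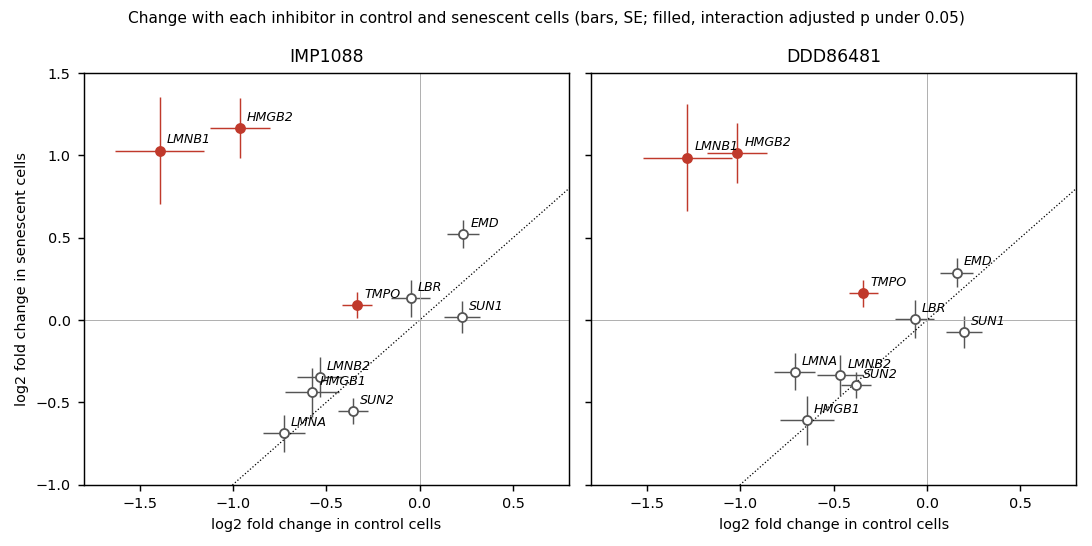
Log2 fold change with IMP1088 (left) and DDD86481 (right) in control cells (horizontal axis) against that in senescent cells (vertical axis) for the 10 genes, with bars of 1 SE. The dotted line marks equal change, and filled points have an interaction adjusted p under 0.05 by edgeR. LMNB1 and HMGB2 lie at −1.39 and −0.96 across and 1.03 and 1.17 up with IMP1088, far above the line, and TMPO lies nearer to it.

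Of the 20 proliferation genes, 17 had a called positive interaction with IMP1088 and 16 with DDD86481, and none a negative one. Their median interaction was 1.59 and 1.62 on the log2 scale, against −0.0021 and −0.0060 over all genes. The positive sign that LMNB1, HMGB2 and TMPO shared was therefore also found in this list. Proliferation genes and the 3 members were low together in senescent DMSO cells. LBR and HMGB1 were lower there as well, at −1.84 and −1.40 against −0.79 for TMPO, and neither had a called interaction. HMGA1, which was higher in senescent DMSO cells (1.62), had called positive interactions of 0.84 and 0.51. The part of the senescent DMSO level in the interaction was not tested.

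Ratios of reads between 2 members of the same library do not depend on scaling between libraries. The log2 ratio of LMNB1 to LMNA reads was −4.61 ± 0.13 (SD, n = 3) in control DMSO and −8.22 ± 0.89 in senescent DMSO libraries. It was −6.34 ± 0.34 in senescent IMP1088 and −6.83 ± 0.48 in senescent DDD86481 libraries, between those of control and senescent DMSO cells. In control cells it was −5.28 ± 0.083 with IMP1088 and −5.22 ± 0.35 with DDD86481. The log2 ratio of HMGB2 to HMGB1 reads was −1.42 ± 0.10 in control DMSO and −2.85 ± 0.045 in senescent DMSO libraries. It was −1.25 ± 0.11 and −1.22 ± 0.29 in senescent cells with IMP1088 and DDD86481, and −1.79 ± 0.17 and −1.78 ± 0.11 in control cells with them. Both parts of each ratio moved with NMTi in senescent cells, LMNB1 and HMGB2 up, LMNA and HMGB1 down. HMGB2 averaged 16.3 and 14.7 CPM there, against 52.1 CPM in control DMSO. HMGB1 averaged 38.6 and 34.3 CPM, against 52.4 CPM in senescent DMSO and 138 CPM in control DMSO. Each of the 10 comparisons of an NMTi or senescent group with its DMSO control separated the libraries, at an exact two-sided permutation p of 0.1, the smallest that 3 against 3 libraries can give.

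**Figure D5:**
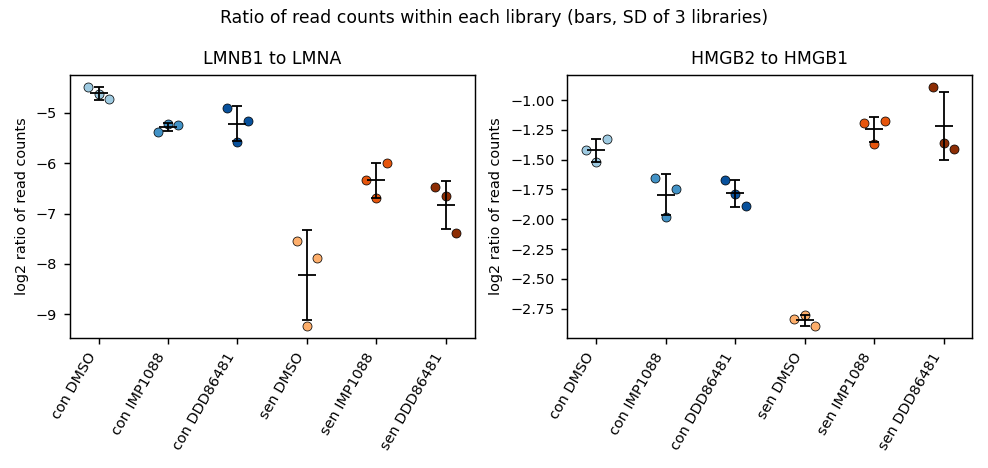
Log2 ratio of LMNB1 to LMNA reads (left) and of HMGB2 to HMGB1 reads (right) in each of 18 libraries, with con for control and sen for senescent. Points are libraries, horizontal marks means and bars SD of 3 libraries. The HMGB2 to HMGB1 ratio averages −2.85 in senescent DMSO and −1.25 and −1.22 in senescent NMTi libraries, near the −1.42 of control DMSO. In those NMTi libraries HMGB2 itself averages 16.3 and 14.7 CPM, against 52.1 CPM in control DMSO, and HMGB1 is below its senescent DMSO level.

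Other genes of the nuclear envelope were followed in lists. In senescent DMSO cells 3 of 5 lamin processing enzymes rose and none fell: RCE1, which trims the farnesylated tail, by 0.75 ± 0.12, FNTA, a farnesyltransferase subunit, by 0.48 ± 0.080, and ZMPSTE24, the protease that matures lamin A, by 0.28 ± 0.088 (log2). Of 16 other envelope proteins 7 rose and 6 fell, among them NRM (−1.47 ± 0.17), CHMP7 (0.92 ± 0.086), an ESCRT-related factor of envelope sealing, and TMEM43 (−0.89 ± 0.087). Of 31 nucleoporins tested of 32 listed, 9 rose and 11 fell, with NUP107 at −1.01 ± 0.11, NDC1 at −0.96 ± 0.12 and NUP188 at 0.87 ± 0.18. Over all genes of this comparison 32.5% were called higher and 36.0% lower, so the nucleoporin counts lay near the background. The list medians in log2 were 0.28 for the enzymes, −0.09 for the envelope proteins and 0.02 for the nucleoporins, against −0.05 over all genes.

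With NMTi in senescent cells, 4 of the 16 envelope proteins fell and none rose with IMP1088, and 4 fell and 1 rose with DDD86481, beside 23.9% and 23.1% of all genes lower, so the falls were at the background. Nesprin genes led both: SYNE3 fell by 1.00 ± 0.19 and 1.01 ± 0.19, SYNE1 by 0.97 ± 0.22 and 0.80 ± 0.22, and SYNE2 by 0.88 ± 0.23 and 0.89 ± 0.23 on the log2 scale. Nesprins are the partners of SUN proteins. SUN2 fell in the same comparisons, but it also fell with both inhibitors in control cells, and its interaction passed with neither. SYNE1 and SYNE3 had called interactions, of −1.13 and −1.09 and of −0.84 and −0.85, and SYNE2 had none. SUN1 passed with neither inhibitor in senescent cells. Of the nucleoporins 5 rose and 1 fell with IMP1088, and 5 rose and none fell with DDD86481, including NUP35 (0.95 ± 0.18 and 0.60 ± 0.18), NUP58 (0.72 ± 0.12 and 0.58 ± 0.12) and the ring protein gene NDC1 (0.62 ± 0.12 and 0.41 ± 0.12), beside 20.6% and 20.1% of all genes higher. ICMT, which methylates farnesylated proteins, fell by 0.23 ± 0.085 and 0.22 ± 0.085. It was also called lower with IMP1088 in control cells, at −0.24 ± 0.085, and no lamin processing enzyme had a called interaction. In senescent cells FNTA rose with IMP1088 and ZMPSTE24 with DDD86481. In control cells 1 of the 16 envelope proteins rose with IMP1088, while 2 rose and 2 fell with DDD86481, and 9 nucleoporins rose and 3 fell with each inhibitor, beside 16.3% and 17.8% of all genes higher and 17.4% and 18.7% lower, with the paralogs POM121 and POM121C uncertain because they share sequence.

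The remaining HMG genes split in senescence. HMGA1 and HMGA2, which encode AT-hook proteins of senescence-associated heterochromatin foci, rose by 1.62 ± 0.10 and 1.44 ± 0.11 on the log2 scale. The 6 other genes of the list of 8 fell, beside 32.5% of all genes higher and 36.0% lower. HMGN5 fell by 1.57 ± 0.32, to at most 30 reads in a senescent DMSO library. With NMTi in senescent cells HMGA1 fell by 0.44 ± 0.10 and 0.66 ± 0.10, and HMGA2 by 0.71 ± 0.11 and 0.64 ± 0.11. No gene of the list rose, beside 20.6% and 20.1% of all genes higher. In control cells 6 of 8 fell with IMP1088 and 7 of 8 with DDD86481, beside 17.4% and 18.7% of all genes lower, HMGA1 by 1.27 ± 0.10 and 1.18 ± 0.10. Of the 8 listed genes, HMGB1 and HMGB2, only HMGB2 rose with NMTi in senescent cells.

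Of 15 heterochromatin genes 3 rose and 7 fell in senescent DMSO cells, near the 68.5% of all genes called. MACROH2A2, a histone variant, had −2.15 ± 0.15, CBX1, an HP1 protein that binds LBR, had −1.31 ± 0.091, and the methyltransferase gene EHMT2 had −0.75 ± 0.11 (log2). With NMTi in senescent cells 1 rose and 3 fell with IMP1088 and 1 rose and 2 fell with DDD86481, below the 44.4% and 43.2% of all genes called, with TRIM28 the gene that rose, by 0.35 ± 0.095 and 0.44 ± 0.095. Of the receptors that bind released HMGB1, TLR2 and AGER were tested of 3 listed. TLR2 rose by 2.88 ± 0.18 in senescent DMSO cells and fell by 1.27 ± 0.16 and 1.41 ± 0.16 with NMTi in senescent cells. AGER was called lower in senescence, from 0.764 to 1.37 CPM to 0.110 to 0.436 CPM, the latter at most 7 reads a library and reaching under the floor.

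The genes whose level over the 18 libraries was most like that of LMNB1, by Pearson correlation of log2 CPM, were TK1 (0.948), KIF20A (0.948), CLSPN (0.941), OLR1 (0.941) and CSRP2 (0.940). Those most like HMGB2 were FRG1 (0.964), TK1 (0.961), MCUB (0.961), TRAM1 (0.959) and OLR1 (0.957). TK1 and OLR1 were on both lists. In senescent DMSO libraries KIF20A had at most 2 reads, OLR1 4, CLSPN 6 and TK1 8, at or near the floor, so their log2 values there are imprecise. LMNA was most like TPM2 (0.945), HSPB1 (0.927), CD99 (0.921), GTF2H5 (0.908) and PTTG1IP (0.907), none of which was on the other lists. Among the members, LMNB1 went with TMPO (0.942), HMGB2 (0.931) and LBR (0.848), and hardly with LMNB2 (−0.018). These values describe 18 libraries in 6 groups, so they mostly reflect the group means.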

How the data were processed

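Poly(A) RNA from 18 libraries was sequenced as single 75-base reads from a directional kit, per the labels. The authors deposited raw read counts per gene, with no normalization. The submitters' processing notes name hg38, DRAGEN, STAR 2.7.8a and DESeq2 1.32.0, whereas the study's methods name hg19 and TopHat with a first-strand library type, and its software list HTSeq. The strand option of the counting itself is not given in the sources used here. Since the build is not settled, coordinates are given for RefSeq promoters (GRCh38.p14) only. Gene lengths and exon overlaps came from GENCODE on GRCh37.

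Counts were scaled by TMM, filtered with filterByExpr and fitted in 1 edgeR 4.0.16 quasi-likelihood model (R 4.3.3) over the 6 groups, with 7 comparisons and Benjamini-Hochberg adjustment at 0.05 over 14341 genes, which held 99.96% of counts; 6836 of 28266 rows had no count. The SE is the absolute log2 fold change divided by the square root of the test's F statistic, and is approximate, above all at low counts. The 95% intervals use the SE and 12 residual degrees of freedom. Scripts were tested on simulated data. Ratios were compared by exact permutation. The floor of 3 reads covers counting error only. DESeq2 1.42.0, other scalings, no filter, a 2-fold threshold, single comparisons, a replicate block and each library left out were alternatives. The closest replicate libraries differed by a chi-square of 5.02 per gene, above sampling noise.

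Members and gene lists were chosen with earlier results of these data known. All 10 members are named; per list and comparison at most 3 called genes with the largest change are, and for LMNB1, HMGB2 and LMNA the 5 genes with the highest correlation. Replicate numbers went together (r over 0.1 in every pair) for the control pair DMSO and IMP1088 (0.394, 0.123 and 0.231) and between the inhibitors within each state, and not for the other comparisons.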

Additional observations from a re-analysis of the deposited data

Results flagged for a closer look

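The change with an inhibitor differed between senescent and control cells for 3 genes, by a test of the difference itself (edgeR interaction term on the log2 scale). For IMP1088 the term was 2.42 for LMNB1, 2.13 for HMGB2 and 0.43 for TMPO. For DDD86481 it was 2.27 for LMNB1, 2.03 for HMGB2 and 0.50 for TMPO. Both inhibitors were compared with the same DMSO libraries, so the values for one are not independent of those for the other. Without control DMSO replicate 3, in which HMGB2 was high, its term was 1.85 and 1.76, and without senescent DMSO replicate 2, in which LMNB1 was low, that of LMNB1 was 2.07 and 1.92.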

How the results depend on the processing

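Of 960 alternative values for single members, 912 kept direction and side of the threshold, 35 lost a call, 13 gained one and 0 reversed a called direction; 25 values called in neither fit changed sign. A 2-fold threshold lowered the members called to 4 in senescence, 2 and 1 with IMP1088 and DDD86481 in senescent cells, and 1 and 2 in control cells, by its own construction. Leaving out 1 library gave 3 to 5 called members in the DDD86481 interaction, with 5 without control DMSO replicate 1, where LMNA and SUN1 were added; the cause was not tested. The fall of LMNA in senescence was lost with DESeq2 size factors (−0.24, adjusted p = 0.0613), without the filter (adjusted p = 0.0583), with DESeq2's own test (adjusted p = 0.0609) and with only the compared groups fitted (adjusted p = 0.0994), and was −0.43 with upper quartile scaling. LMNA with DDD86481 in senescent cells was lost with only the compared groups fitted (adjusted p = 0.0654). EMD with IMP1088 in control cells was lost with upper quartile scaling, no filter and single comparisons (adjusted p = 0.105, 0.131 and 0.109), while the EMD interaction with IMP1088 passed under the first and the last (adjusted p = 0.0389 and 0.0442) and the LMNA interaction with DDD86481 under upper quartile scaling (adjusted p = 0.0362). That scaling moved the median log2 fold change of all genes by −0.15 in senescence. The replicate block, paired by number, changed no call of a member, with 8 called in senescence and 8 with IMP1088 in control cells as before. Depth limits LMNB1 most, at 14 to 47 reads in senescent DMSO libraries.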
